A study of Mus musculus with 6 samples.

Results

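Expression of 10 genes used as markers of liver tumours or of fetal liver was followed over weeks 0, 2 and 7 of a treatment of mouse liver cells. The genes were Gpc3, Ly6d, Cd24a, Tspan8, Golm1, Mdk, Sox4, Bex1, Igf2bp3 and Cpe, 10 of the 54446 genes in the table. All 10 were among the 15368 genes with enough deposited counts to be tested. They are a listed set outside the albumin gene cluster and the imprinted loci, and their levels over the 3 weeks in these same libraries were part of the choice. Their levels are therefore given as a description. Where the number of them called by a test is given, it stands beside the calls over all genes, and nothing is read from it.

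The series title names the treatment as MET/CAT and SB transposase. MET is the name of a receptor tyrosine kinase, a transposase is an enzyme that inserts DNA into chromosomes, and what CAT stands for is not spelled out. Weeks 0, 2 and 7 of the treatment each have 2 libraries, 6 in all, made from poly-A RNA of bulk liver cells. Week 0 serves as the baseline, and no untreated mice at weeks 2 or 7 were analysed here, so treatment and time since week 0 cannot be told apart. The label of week 0 replicate 1 names FVB/N together with C57BL/6 as the genetic background, and in the other labels the number after C57BL/ varies, so that the strain of those samples is unsure. Neither age nor sex is labelled, nor is it stated whether the 2 libraries of a week came from different animals, so the spread between them may be technical. The labels do not say which cells carried the treatment.

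The libraries held between 49353453 and 58434358 counts. Xist, the RNA that silences 1 X chromosome in female cells, was at 221 and 216 CPM (counts scaled to a library of 1000000) in the week 2 libraries, and at 0.31 CPM or less in each of the other 4, while the 4 Y-linked genes examined had 0 counts at week 2. Comparisons with week 2 therefore mix time with sex, and the parts of the 2 cannot be told apart; Gpc3 and Bex1 are X-linked. In bulk libraries, a change in the share of a cell type and a change in RNA per cell cannot be told apart. The defining hepatocyte markers were abundant in every library, with summed levels of 98852 and 98149.5 CPM at week 0, 121485 and 115171 CPM at week 2, and 85834 and 85802 CPM at week 7. Most of the 8 markers went against the sums in comparisons with week 2. At week 2 against week 0, 1 was called higher and 6 lower, against 9.81% and 8.81% of all genes. At week 7 against week 2, 5 were higher and 1 lower (10.1% and 9.73%), and against week 0, 1 and 4 (7.58% and 6.23%). Those calls take an adjusted p below 0.05 in edgeR's quasi-likelihood test. The 8 markers of dividing cells summed to 14.2 and 15.1 CPM at week 0, 31.3 and 25.9 CPM at week 2, and 28.7 and 29.7 CPM at week 7. Those sums were higher at weeks 2 and 7 than at week 0, and weeks 2 and 7 overlapped. Gpc3, Ly6d, Cpe, Golm1 and Tspan8 were higher again at week 7 than at week 2, and Sox4 and Mdk were lower. The part of dividing cells in the levels of the 10 genes was not tested.

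Oncofetal genes are active in fetal tissue, fall silent in the adult organ and can be active again in tumours; in the liver, glypican 3 is the best known of them in diagnosis. Surface and secreted products are used as markers because antibodies can reach them in tissue sections or in blood. By their known products, 4 of the 10 genes fit the description of cell surface markers (Gpc3, Ly6d, Cd24a and Tspan8) and 3 that of secretory pathway or secreted proteins (Golm1, Mdk and Cpe). The other 3 act inside the cell: Sox4 is a transcription factor, Bex1 an adaptor protein and Igf2bp3 an RNA-binding protein. A label of surface and secreted markers therefore covers 7 of the 10.

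The summed level of the 10 genes was 7.07 and 9.08 CPM in the week 0 libraries, 36.9 and 33.4 CPM in the week 2 libraries, and 87.1 and 81.3 CPM in the week 7 libraries. Gpc3, Ly6d and Cpe carried most of the week 7 sum. The genes followed several time courses: Ly6d, Cpe and Golm1 were already higher at week 2 and higher again at week 7, Gpc3 and Tspan8 were high mainly at week 7, Sox4 and Mdk were highest at week 2, and Cd24a differed little. At an adjusted p of 0.05 over all tested genes (edgeR's quasi-likelihood test), 6 of the 10 were called higher and 0 lower at week 7 against week 0, where 7.58% of all genes were called higher and 6.23% lower, 13.8% in all. At week 2 against week 0, 5 were called higher and 0 lower, against 9.81% higher and 8.81% lower among all genes, 18.6% in all. At week 7 against week 2, 3 were called higher and 1 lower, against 10.1% and 9.73% of all genes, 19.8% in all. Because the genes were chosen on these values, nothing is read from those counts. The median log2 fold change of the 10 genes was 3.24 at week 7 against week 0, or 2.28 with Bex1, which had 0 counts at week 0, set at its lower bound; the median over all tested genes was 0.0016.

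**Figure D1:**
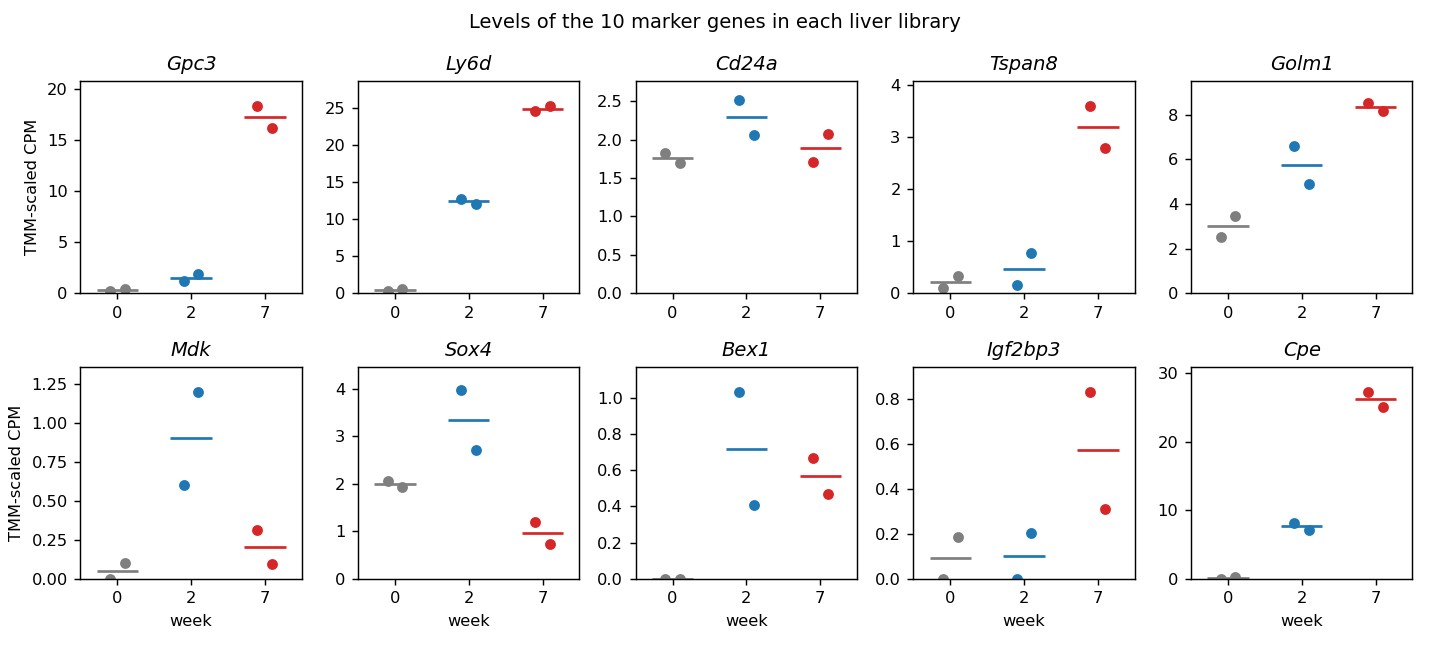
Levels of the 10 marker genes by week: each panel plots scaled CPM on the vertical axis (from 0, with its own scale) against week of treatment. Points are the 2 libraries of a week and bars their mean; Gpc3, Ly6d, Golm1 and Cpe have both week 7 libraries above both week 2 libraries, whereas Sox4 and Mdk are highest at week 2.

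Gpc3 (ENSMUSG00000055653, X chromosome) encodes glypican 3, a heparan sulphate proteoglycan anchored to the cell surface by a lipid and abundant in fetal liver. It was at 0.240 and 0.415 CPM in the week 0 libraries, 1.15 and 1.87 CPM at week 2, and 18.4 and 16.3 CPM at week 7. The 3 weeks did not overlap, and most of the difference lay between weeks 2 and 7. Gpc3 averaged 17.3 ± 1.501 CPM at week 7 and 0.328 ± 0.123 CPM at week 0 (SD, n = 2 each), a ratio of 52.9 with a 95% counting interval of 26.8 to 124. The counting intervals here are Clopper-Pearson intervals on read pairs, taking 1 read pair as 4 deposited counts, and they cover counting error only. That unit is an assumption: of the values from 4 to 43, 68.3% to 69.6% per library were a multiple of 4 or 1 above, where evenly spread values would give 50%. The week 7 mean was 11.5 times the week 2 mean (8.45 to 16.0), and the week 2 mean was 4.62 times the week 0 mean (2.16 to 11.4). The week 0 level rested on 32 deposited counts over both libraries, about 8 read pairs, against 1823 counts at week 7.

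Ly6d (ENSMUSG00000034634, chromosome 15) encodes a small lipid-anchored surface protein of the Ly6/uPAR family, used as a marker of early B lineage cells and of some epithelia. It was at 0.321 and 0.622 CPM in the week 0 libraries, 12.7 and 12.1 CPM at week 2, and 24.6 and 25.3 CPM at week 7. Every week 2 library stood above both week 0 libraries, and every week 7 library above both week 2 libraries. Ly6d averaged 24.9 ± 0.488 CPM at week 7 and 0.471 ± 0.213 CPM at week 0 (SD, n = 2 each), a ratio of 52.9 (95% counting interval 29.0 to 99.1). At week 2 the ratio to week 0 was 26.3 (14.4 to 49.6), and week 7 was 2.01 times week 2 (1.76 to 2.29). On the ratio scale the larger step of Ly6d lay between weeks 0 and 2, and in CPM the steps before and after week 2 were of similar size. The 8 B and plasma cell markers examined summed to 2.42 and 2.59 CPM at week 0, 7.67 and 9.20 CPM at week 2, and 8.34 and 8.25 CPM at week 7. Those sums were higher at weeks 2 and 7, as Ly6d was, and lay below the level of Ly6d itself in those weeks. In edgeR, 0 of the 8 were called higher and 1 lower at week 7 against week 0, against 7.58% and 6.23% of all genes. At week 2 against week 0, 0 were called higher and 0 lower, against 9.81% and 8.81% of all genes. DESeq2 called 1 higher in each comparison, and 1 lower at week 7. At week 7 the sum was led by Jchain, a plasma cell gene, at 5.35 and 4.85 CPM, and the part of B lineage cells in the level of Ly6d was not tested.

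Tspan8 (ENSMUSG00000034127, chromosome 10) encodes a tetraspanin, a surface protein that crosses the membrane several times, organises other membrane proteins and is abundant on gut epithelium and on several carcinomas. It was at 0.100 and 0.332 CPM at week 0, 0.150 and 0.776 CPM at week 2, and 3.59 and 2.78 CPM at week 7. Both week 7 libraries stood above all others, whereas weeks 0 and 2 overlapped. Tspan8 averaged 3.19 ± 0.577 CPM at week 7 and 0.216 ± 0.164 CPM at week 0 (SD, n = 2 each), a ratio of 14.8 (95% counting interval 6.46 to 49.6). The ratio of week 2 to week 0, 2.15, had an interval from 0.785 to 8.18, and its fitted log2 value was 1.10 with all libraries and -0.51 without week 2 replicate 2. Leaving out week 0 replicate 2 put the log2 value of week 7 against week 0 at 4.96 and leaving out week 0 replicate 1 put it at 3.25, against 3.87 with all libraries. At week 7 against week 2 it was 4.39 without week 2 replicate 2 and 2.04 without week 2 replicate 1, against 2.78 with all. The week 0 and week 2 levels rested on 21 and 55 counts, where 12 counts in a library, or 3 read pairs, were taken as the limit of detection.

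Cd24a (ENSMUSG00000047139, chromosome 10) encodes the small lipid-anchored sialoglycoprotein CD24, found on fetal and biliary progenitor cells and many tumours, where it is bound by Siglec receptors. It was at 1.82 and 1.70 CPM at week 0, 2.52 and 2.06 CPM at week 2, and 1.70 and 2.07 CPM at week 7. The week 7 and week 0 libraries overlapped, and the week 2 libraries were only slightly higher. The ratio of week 7 to week 0 was 1.07 with an interval of 0.708 to 1.67, and that of week 2 to week 0 was 1.30 (0.876 to 1.95). A difference within those intervals was not detectable at this depth. Of the 75-base stretches of Cd24a, 1.1% also occur in Gm6212.

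Golm1 (ENSMUSG00000021556, chromosome 13) encodes GP73, a Golgi membrane protein whose cut and released part is measured in serum in liver disease. It was at 2.52 and 3.46 CPM at week 0, 6.60 and 4.88 CPM at week 2, and 8.50 and 8.18 CPM at week 7. No 2 weeks overlapped. Golm1 averaged 8.34 ± 0.231 CPM at week 7 and 2.99 ± 0.663 CPM at week 0 (SD, n = 2 each), 2.79 times as high (95% counting interval 2.14 to 3.70). Week 2 was 1.92 times week 0 (1.46 to 2.57), and week 7 was 1.45 times week 2 (1.18 to 1.78). The kit does not mark strand, and Golm1 overlaps Naa35, an acetyltransferase subunit gene on the opposite strand, by 1297 bases; 27.4% of its 75-base stretches are shared with transcripts of other genes. Naa35 itself was at 21.4 ± 1.30 CPM at week 0, 18.3 ± 0.887 CPM at week 2 and 21.5 ± 0.543 CPM at week 7 (SD, n = 2 each).

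Cpe (ENSMUSG00000037852, chromosome 8) encodes carboxypeptidase E, which trims basic residues from prohormones in secretory granules of endocrine and nerve cells. It was at 0 and 0.332 CPM at week 0, 8.19 and 7.16 CPM at week 2, and 27.3 and 25.1 CPM at week 7. The 3 weeks did not overlap. Cpe averaged 26.2 ± 1.56 CPM at week 7 and 0.166 ± 0.235 CPM at week 0 (SD, n = 2 each), a ratio of 158 whose interval ran from 62.5 to 592. Week 2 was 46.3 times week 0 (18.2 to 174), and week 7 was 3.41 times week 2 (2.93 to 3.98). All 16 counts of Cpe at week 0 were in replicate 2. The week 0 mean lay below 0.245 CPM, the limit of detection in that week. With week 0 replicate 1 left out, the fitted log2 fold change at week 7 was 6.29, against 7.30 with it, and that at week 2 was 4.52, against 5.53 with it. Without week 0 replicate 2, which leaves week 0 at 0 counts, those values were 13.5 and 11.7. The size of the ratios to week 0 is therefore poorly fixed. Of 12 neuroendocrine markers, 9 had 0 counts in all 6 libraries, among them Chgb, Pcsk1, Pcsk2, Ins1 and Ins2, and the 12 summed to 1.04 and 0.705 CPM at week 0, 1.78 and 1.11 CPM at week 2, and 0.611 and 0.548 CPM at week 7.

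Mdk (ENSMUSG00000027239, chromosome 2) encodes midkine, a secreted heparin-binding growth factor of embryonic tissue. It was at 0 and 0.104 CPM at week 0, 0.600 and 1.20 CPM at week 2, and 0.315 and 0.098 CPM at week 7. Both week 2 libraries stood above the other 4. Mdk averaged 0.899 ± 0.423 CPM at week 2 and 0.0518 ± 0.0733 CPM at week 0 (SD, n = 2 each), a ratio of 17.4 whose interval, 3.66 to 910, rests on 5 counts at week 0. Its fitted log2 value was 4.07 with all libraries, 3.09 without week 0 replicate 1 and 8.63 without week 0 replicate 2, which leaves week 0 at 0 counts. Week 7 was 0.229 times week 2 (0.0851 to 0.623), and the ratio of week 7 to week 0, 3.98, had an interval from 0.680 to 258. The fitted log2 value of week 7 against week 0 was 1.96 with all libraries and lay between 0.90 (without week 7 replicate 1) and 6.52 (without week 0 replicate 2) when 1 library was left out; that of week 7 against week 2 was -2.11 with all, -3.17 without week 7 replicate 1 and -1.51 without week 7 replicate 2. The limit of detection, 12 counts per library, was 0.245 CPM at week 0, 0.201 CPM at week 2 and 0.228 CPM at week 7. Both week 0 libraries and 1 week 7 library were below it.

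Sox4 (ENSMUSG00000076431, chromosome 13) encodes a transcription factor of progenitor cells that is common in tumours. It was at 2.06 and 1.93 CPM at week 0, 3.97 and 2.72 CPM at week 2, and 1.20 and 0.724 CPM at week 7. It was the 1 gene of the 10 whose week 7 libraries both lay below both week 0 libraries. Sox4 averaged 0.964 ± 0.340 CPM at week 7 and 2.00 ± 0.0957 CPM at week 0 (SD, n = 2 each), a ratio of 0.483 (95% counting interval 0.296 to 0.813). Week 7 was 0.288 times week 2 (0.184 to 0.458), and week 2 was 1.68 times week 0 (1.18 to 2.42). The 8 stellate cell and fibroblast markers summed to 251 to 255 CPM at week 0, 387 to 392 CPM at week 2 and 172 to 185 CPM at week 7, the order of Sox4. The 8 Kupffer cell and macrophage markers had that order as well, with sums of 401 to 412 CPM at week 0, 554 to 557 CPM at week 2 and 292 to 299 CPM at week 7. The order was not particular to those lists. Endothelial marker sums had it too, with 292 to 310 CPM at week 0, 358 to 370 CPM at week 2 and 271 to 275 CPM at week 7. So did the sums of the erythroid and hepatocyte markers. The part of any of those cells in the levels of Sox4 and Mdk was not tested. Over 2616 bases Sox4 overlaps Gm26735 on the opposite strand, which had 0 counts in all libraries.

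Bex1 (ENSMUSG00000050071, X chromosome) encodes a small adaptor protein of nerve and progenitor cells. In both week 0 libraries it had 0 counts; its levels were 1.03 and 0.405 CPM at week 2, and 0.667 and 0.469 CPM at week 7. Weeks 2 and 7 overlapped and both stood above week 0. Against the detection limit of 12 counts per library, Bex1 was at least 2.32-fold higher at week 7 and at least 2.94-fold higher at week 2 than at week 0. Week 7 was 0.790 times week 2 (0.373 to 1.56), and without week 2 replicate 1 the fitted log2 value of that comparison was 0.49, against -0.34 with all libraries. With 86 counts at week 2 and 60 at week 7, Bex1 rests on about 22 and 15 read pairs. Of its 75-base stretches, 26% also occur in Bex4, Tceal7 or Bex2 transcripts. Bex4 had no more than 20 counts in any library, Bex2 12 counts in 1 library, and Tceal7 none.

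Igf2bp3 (ENSMUSG00000029814, chromosome 6) encodes an RNA-binding protein of the embryo that returns in carcinomas. It was at 0 and 0.187 CPM at week 0, 0 and 0.203 CPM at week 2, and 0.834 and 0.313 CPM at week 7. Both week 7 libraries stood above the other 4, which lay at or near the limit of detection. The ratio of week 7 to week 0 was 6.14 with an interval of 1.63 to 63.1, and that of week 7 to week 2 was 5.66 (1.60 to 30.6). Single libraries decide these sizes: the fitted log2 value of week 7 against week 0 was 2.597 with all libraries, 1.61 without week 0 replicate 1, 1.73 without week 7 replicate 1 and 7.98 without week 0 replicate 2, which leaves week 0 at 0 counts. At week 7 against week 2 it was 2.48 with all libraries, 1.49 without week 2 replicate 1, 1.61 without week 7 replicate 1 and 7.92 without week 2 replicate 2, which leaves week 2 at 0 counts. At week 2 against week 0 the fitted log2 value was 0.12 with all libraries and ran from -5.33 to 5.503 when 1 library was left out. The replicate block gave 4.12 at week 7 against week 0 and 4.05 at week 7 against week 2, and limma voom 3.601 and 3.67. Igf2bp3 had 9 counts at week 0, 12 at week 2 and 61 at week 7. The gene overlaps Malsu1 on the opposite strand by 1529 bases, and 17.8% of its 75-base stretches are shared; Malsu1 was at 21.5 ± 1.12 CPM at week 7 and 20.4 ± 0.902 CPM at week 0 (SD, n = 2 each).

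**Figure D2:**
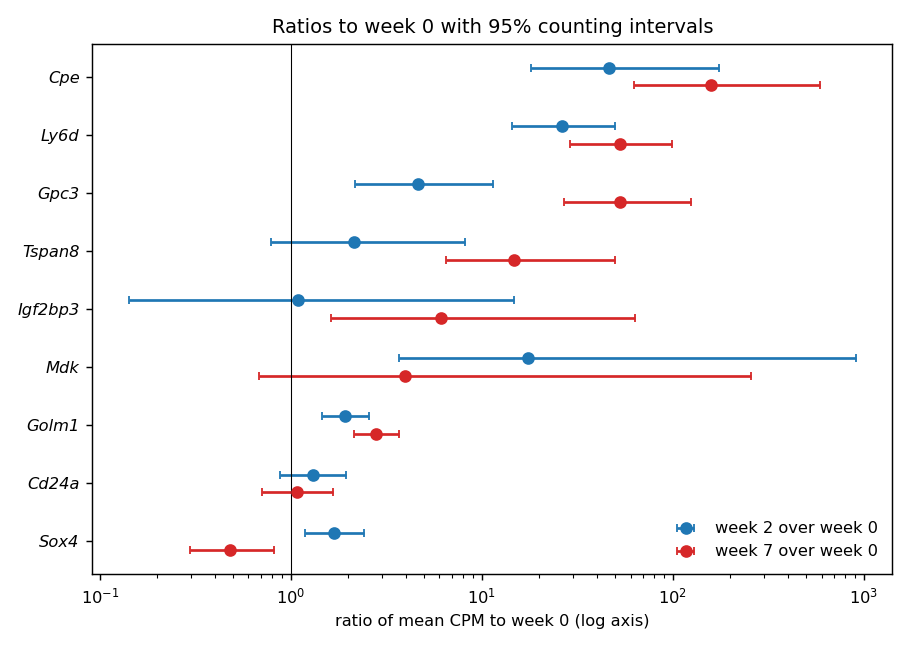
Ratio of mean scaled CPM at week 2 (upper, blue) and week 7 (lower, red) to week 0, on a log axis, with 95% counting intervals; Bex1 is left out because it had 0 counts at week 0. Cpe, Ly6d and Gpc3 have week 7 intervals that start at 26.8 or above, whereas the Sox4 interval at week 7 lies below 1 and the Cd24a intervals include 1.

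Per kilobase of exon, which allows levels of different genes to be compared, Ly6d was the highest of the 10 at week 7, with 33.5 CPM per kilobase, and stood at the 92.4 percentile of 15362 tested genes with a length. Cpe stood at the 80.4 percentile and Gpc3 at the 73.3 percentile. Golm1 and Tspan8 were in the middle, at the 48.9 and 48.8 percentiles. At week 0 none of the 10 was above the 32.2 percentile. Igf2bp3 stayed in the lowest part of the order throughout; its percentile was 2.38 at week 0 and 1.29 at week 2, and its week 7 percentile was 7.25.

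**Figure D3:**
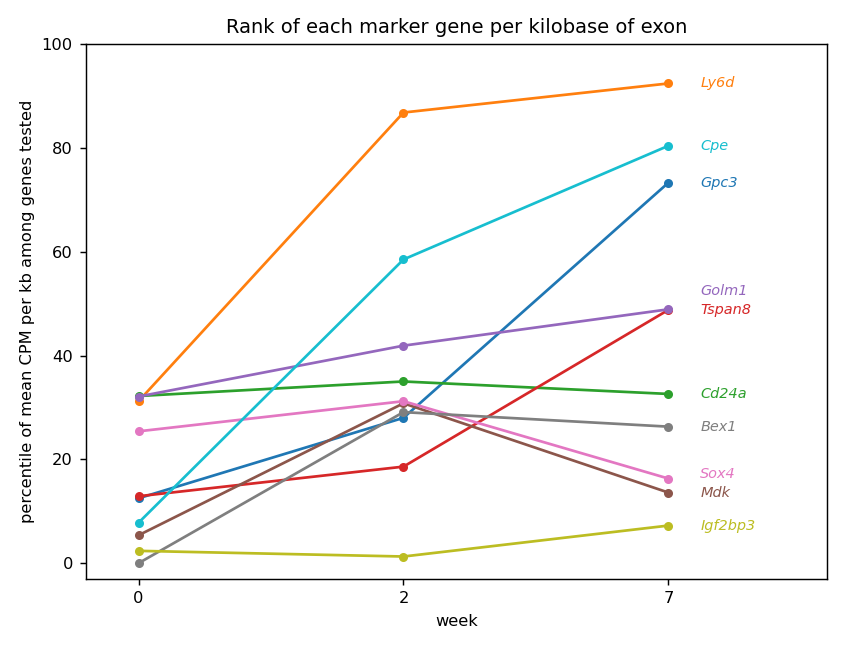
Percentile of each gene's mean CPM per kilobase of exon among 15362 tested genes (vertical axis) at weeks 0, 2 and 7 (horizontal axis). Ly6d was highest at week 7, at the 92.4 percentile, and Cpe stood at 7.79 at week 0, 58.5 at week 2 and 80.4 at week 7, while Igf2bp3 stayed below 10.

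Genes with the most similar time course were sought over the 6 libraries, centred on week 0 and with a log2(CPM + 0.5) scale, among 9635 tested genes averaging at least 5 CPM in their highest week. The nearest to the median profile of the 10 genes was Flot1, a membrane scaffolding protein, with a root mean square difference of 0.123, followed by P2ry2, C77080, Slc7a5 and Ly75 at 0.131 to 0.134. Flot1 was at 18.0 ± 1.37 CPM at week 7 and 8.15 ± 0.817 CPM at week 0 (SD, n = 2 each). That is a smaller change than the median log2 fold change of the 10 genes, 3.24, or 2.28 with Bex1 at its lower bound. The 0.5 added to each CPM shrinks changes of genes with low levels, as most of the 10 had at week 0. Because the 10 genes followed several time courses, their median profile need not match any 1 of them. The nearest to Gpc3 alone were Sult1e1, Sfrp2 and Apcdd1, with differences of 0.410, 0.431 and 0.595. Apcdd1 was at 19.6 ± 0.700 CPM at week 7 and 0.0401 ± 0.0567 CPM at week 0 (SD, n = 2 each).

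Promoter windows, 250 bases before and 50 after the start of a gene in RefSeq's GRCm38.p6, were found for 6 of the 10 genes (Gpc3, Tspan8, Golm1, Sox4, Bex1 and Igf2bp3). They were searched on both strands for the GC box GGGCGG, the TATA box TATAAA, the E-box CACGTG and the TCF/LEF core CTTTG followed by 2 bases that are each A or T. TCF/LEF factors act in the Wnt pathway. The windows of 4 of the genes that were higher at week 7 are given, with matches in capitals.
Gpc3, chrX:52613925-52614224, minus strand: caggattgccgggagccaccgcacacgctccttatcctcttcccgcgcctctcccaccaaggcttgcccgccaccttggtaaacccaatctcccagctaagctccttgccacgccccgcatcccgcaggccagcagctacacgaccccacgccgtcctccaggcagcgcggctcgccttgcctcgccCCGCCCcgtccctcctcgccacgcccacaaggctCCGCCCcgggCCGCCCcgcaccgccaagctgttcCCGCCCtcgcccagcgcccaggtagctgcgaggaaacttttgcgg
Tspan8, chr10:115817034-115817333, plus strand: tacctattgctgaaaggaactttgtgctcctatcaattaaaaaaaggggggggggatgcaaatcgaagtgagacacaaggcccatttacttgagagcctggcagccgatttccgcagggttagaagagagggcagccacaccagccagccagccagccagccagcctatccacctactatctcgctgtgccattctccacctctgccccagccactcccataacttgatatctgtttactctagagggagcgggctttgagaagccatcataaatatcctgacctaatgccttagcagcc
Golm1, chr13:59675735-59676034, minus strand: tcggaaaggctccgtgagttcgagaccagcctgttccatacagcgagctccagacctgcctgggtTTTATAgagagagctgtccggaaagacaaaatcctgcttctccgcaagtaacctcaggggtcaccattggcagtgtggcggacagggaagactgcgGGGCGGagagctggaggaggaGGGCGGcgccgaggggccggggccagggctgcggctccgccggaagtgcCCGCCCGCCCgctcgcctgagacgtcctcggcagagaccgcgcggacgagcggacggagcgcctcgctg
Bex1, chrX:136215464-136215763, minus strand: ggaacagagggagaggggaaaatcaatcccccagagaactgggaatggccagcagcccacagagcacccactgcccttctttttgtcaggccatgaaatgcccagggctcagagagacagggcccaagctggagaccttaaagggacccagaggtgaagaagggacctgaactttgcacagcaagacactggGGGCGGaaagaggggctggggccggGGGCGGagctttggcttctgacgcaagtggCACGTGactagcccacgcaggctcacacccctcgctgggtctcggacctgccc
Gpc3 held 4 GC boxes and Golm1 also 4, beside 1 match to the TATA box letters, and Bex1 held 2 GC boxes and 1 E-box. The TATA match of Golm1 lay at position -185 from the start and on the opposite strand, and is a match of letters only. Tspan8 held no match. Over all 32851 windows of that length, 35.7% held a GC box, 13.6% a TATA box, 7.15% an E-box and 16.9% a TCF/LEF match. None of the 6 windows held a TCF/LEF match, which says only that these letters are not in these windows. The Gpc3 and Golm1 windows were rich in CpG, with 30 each, against a median of 7 over all windows; the Tspan8 window held 5.

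Related genes were counted to show what the families of the 10 genes did. Over the 140 tested genes of 10 family and tumour marker lists, chosen with earlier results of these data known, 27 rose and 7 fell at week 7 against week 0, 24.3% in all against 13.8% of all genes tested; the median log2 fold change was 0.10, against 0.0016 for all genes. At week 2 against week 0, 33 rose and 4 fell, 26.4% in all against 18.6% of all genes. At week 7 against week 2, 16 rose and 24 fell, 28.6% in all against 19.8% of all genes. At week 7 against week 0, 18 of them were called when either week 0 replicate or week 7 replicate 1 was left out, against 34 with all libraries.

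The relatives of Gpc3, heparan sulphate proteoglycans and the enzymes that build or trim them, numbered 20 tested genes, of which 6 rose and 1 fell at week 7 (35%; median log2 fold change 0.11). Hs6st1, a heparan sulphate sulphotransferase, was at 164 ± 10.8 CPM at week 7 and 121 ± 2.18 CPM at week 0 (SD, n = 2 each; 1.36-fold, edgeR adjusted p = 0.0012). Ndst1, another sulphotransferase, rose 1.35-fold (adjusted p = 0.0026), and Notum, a secreted enzyme that trims the Wnt ligand, rose 2.18-fold to 37.7 ± 9.31 CPM at week 7, against 17.3 ± 2.09 CPM at week 0 (adjusted p = 0.00462). Sdc3, a syndecan, fell by 0.30 on the log2 scale (adjusted p = 0.0148), and its call was lost without week 0 replicate 2 or without either week 7 replicate (adjusted p = 0.0582 to 0.0973). Of the other 12 tested Ly6/uPAR genes, none rose in edgeR (2 at an unadjusted p of 0.05, and 1 with DESeq2) and Cd59a, a complement inhibitor, fell, to 18.6 ± 1.79 CPM at week 7 against 25.1 ± 1.41 CPM at week 0 (adjusted p = 0.0271); its call was lost when any 1 library other than week 7 replicate 2 was left out (0.0512 to 0.151). At week 2 against week 0, 3 of the 12 rose and 0 fell, against 9.81% and 8.81% of all genes. At week 7 against week 2, 0 rose and 3 fell, against 10.1% and 9.73% of all genes.

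Among 24 tetraspanins, 4 rose and 2 fell at week 7 (25%; median log2 fold change 0.04). Tspan5 rose 3.20-fold (adjusted p = 0.00866) and Cd63, a tetraspanin of lysosomes and vesicles, rose 2.11-fold (adjusted p = 0.00577). Cd81 rose 1.17-fold (adjusted p = 0.0177), Tspan31 fell by 0.18 on the log2 scale (0.018) and Cd53, a leukocyte gene, fell by 0.64 (0.0333). The call of Cd53 was lost whichever of the 6 libraries was left out. Tspan31 lost its call with any of 3 libraries left out, and Cd81 with either of 2. The call of Cd53 was also lost with the replicate block and with the 4 compared libraries alone, and that of Tspan31 with scaling by total counts only. Of 9 partners of CD24 and midkine, Lrp1, an endocytic receptor, rose 1.34-fold to 633 ± 22.7 CPM at week 7 against 474 ± 0.432 CPM at week 0 (adjusted p = 0.000303), and no other was called in edgeR, whereas DESeq2 called 2 of the 9 higher. Of 16 Golgi membrane proteins, Gorasp1 rose (log2 fold change 0.31, adjusted p = 0.0484) and Golga4 and B4galt1 fell by 0.72 and 0.28 (adjusted p = 0.0231 and 0.0424). Gorasp1 and B4galt1 lost their calls whichever library was left out (adjusted p = 0.0541 to 0.233), and Golga4 without either week 0 replicate (0.113 and 0.117).

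Of 8 Sox genes, Sox5 rose (1.71-fold, adjusted p = 0.0296; the call was lost without week 0 replicate 2, at 0.141, or week 7 replicate 1, at 0.160). Of the 5 tested Bex and Tceal genes and the 8 tested genes of the Igf2bp, Lin28 and let-7 group, 0 were called at week 7 in edgeR. At an unadjusted p of 0.05 there was 1 gene in each group, and DESeq2 called 1, Bex4 (adjusted p = 0.0194), and limma voom 0. Igf2bp1, Lin28a, Lin28b and Trim71 had 0 counts in all 6 libraries. No count of Bex4 was seen at week 7, and its week 0 level was 0.235 ± 0.0201 CPM (SD, n = 2; adjusted p = 0.108). Dicer1, the enzyme that cuts microRNA precursors, was at 37.6 ± 1.91 CPM at week 7 and 31.0 ± 1.48 CPM at week 0 (SD, n = 2 each; adjusted p = 0.153). Of 13 carboxypeptidases and prohormone processing genes, 3 rose and 1 fell (30.8%). Aebp1, an extracellular carboxypeptidase-like protein, rose 2.58-fold (adjusted p = 0.0116), and Furin, the Golgi protease, rose 1.38-fold (0.0291), while Pam, the amidating enzyme, fell by 0.65 on the log2 scale (0.031). For each of these 3 genes the call was lost when any of at least 3 of the 4 libraries compared was left out (adjusted p = 0.051 to 0.176).

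At week 7 against week 0, the other liver tumour markers had the largest share called of the 10 lists. Of 25 tested, 11 rose and 0 fell at week 7 in edgeR (44%; median log2 fold change 0.25), and 14 rose and 0 fell at week 2 (56%, against 18.6% of all genes). At an unadjusted p of 0.05, 2 were lower at week 7, and DESeq2 called 1 lower and limma voom 0. At week 7 against week 2, 3 of the 25 rose and 6 fell in edgeR (36%, against 19.8% of all genes). Lcn2, a secreted acute phase protein, was at 25.5 ± 1.83 CPM at week 7 and 1.91 ± 0.0895 CPM at week 0 (SD, n = 2 each), 13.4-fold higher (log2 fold change 3.74, SE 0.13; adjusted p = 5.66e-07). Scd2, a fatty acid desaturase, rose 7.11-fold (adjusted p = 1.03e-05), and Anxa2, a membrane-binding annexin, rose 3.21-fold (adjusted p = 3.27e-05). The log2 fold change at week 2 against week 0 was 4.04 for Lcn2, 0.31 for Scd2 and 1.07 for Anxa2. Prom1 and Cdh17 were named after their values were seen, so no p-value is given for them. Prom1, which encodes the CD133 surface protein, was at 15.7 ± 3.05 CPM at week 7 and 0.454 ± 0.407 CPM at week 0 (SD, n = 2 each). Its ratio was 34.5 and its log2 fold change 5.09. That log2 value was 6.54 without week 0 replicate 1 and 4.40 without week 0 replicate 2. Cdh17, a cadherin of the gut, was at 4.71 ± 1.78 CPM at week 7 (SD, n = 2) and had 0 counts in both week 0 libraries. Against the detection limit it was at least 19.2-fold higher at week 7, and it passed the filter only through the later weeks. At week 2 against week 0, the log2 fold change of Prom1 was already 5.35, and Cdh17 was at least 6.29-fold higher. The 9 cholangiocyte markers summed to 36.0 and 36.2 CPM at week 7, 42.6 and 51.9 CPM at week 2, and 32.7 and 34.7 CPM at week 0. Of the 8 that were tested, 1, Krt19, rose at week 7 against week 0.

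**Figure D4:**
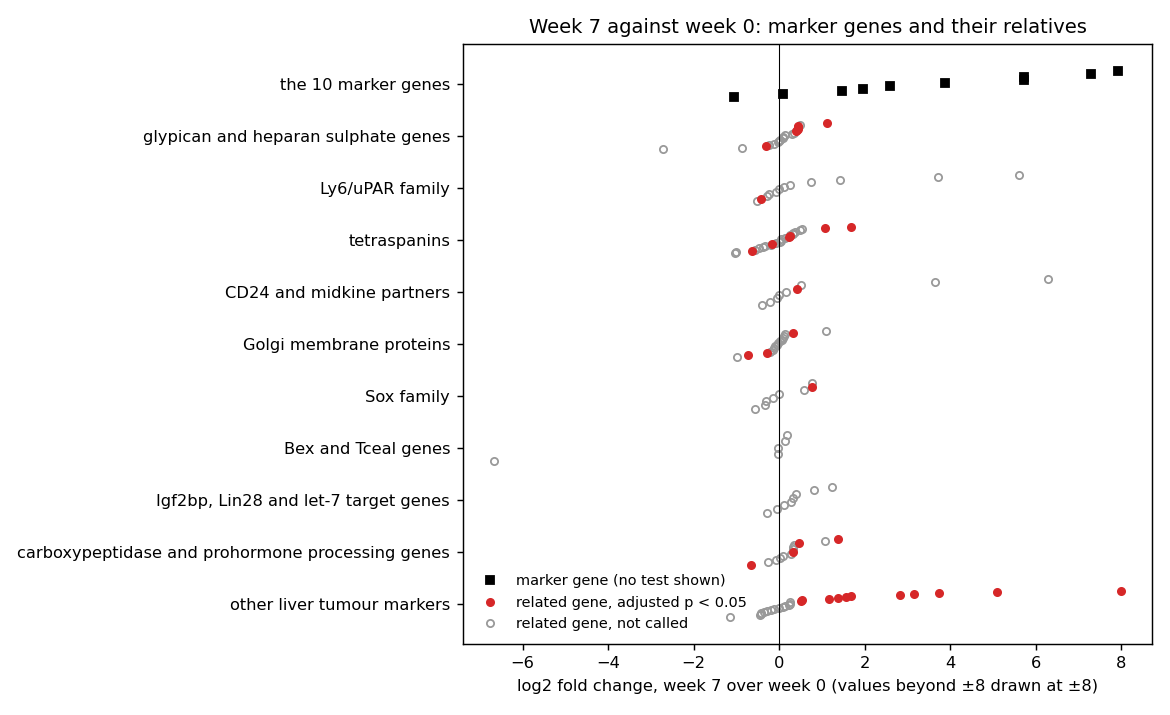
Log2 fold change of week 7 over week 0 for the 10 marker genes (black squares, no test shown) and for each family list (red, adjusted p below 0.05; open, not called), 1 row per list. Genes with 0 counts in a week (Bex1, Bex4, Ly6k, Ltk and Cdh17) are drawn at fitted values, which are no bound, and Cdh17 lies beyond the axis; Tspan5, at 1.68, is the largest called tetraspanin.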

How the data were processed

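The deposited table held estimated counts per Ensembl gene, made by the authors and not scaled to depth, for 6 libraries. The TruSeq V2 kit was used on poly-A RNA, with paired-end sequencing, per the labels' protocols. Bowtie 0.12.2 and mm8 appear in the submitters' processing notes; neither the program that counted reads nor its annotation is named, and many gene identifiers postdate mm8, so no coordinate was taken from the files. Symbols and exon lengths are from GENCODE M21, and promoters from RefSeq.

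Every deposited count was already a whole number, and rounding to whole numbers altered 0 values. Many low values, not all, lay at or 1 above a multiple of 4 (68.3% to 69.6% of those from 4 to 43, against 50% if even), and 4 counts were taken as 1 read pair, an assumption behind every counting interval and detection limit. Genes kept by edgeR 4.0.16 (filterByExpr) were fitted with TMM scaling and a robust quasi-likelihood model of the 3 weeks over all 6 libraries (R 4.3.3), with Benjamini-Hochberg adjustment over 15368 genes and 3 residual degrees of freedom between libraries. CPM are scaled with TMM. Calls take an adjusted p below 0.05. The steps were tested on simulated data.

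Samples were grouped by week from their titles. Members and lists were chosen with earlier results of these data known. Named relatives are, per list, up to 3 called higher and 3 called lower at week 7 against week 0, by smallest adjusted p, and otherwise the 1 tested gene with the smallest p. 1 result under that rule is not reported here. Alternatives were other scalings, filters, DESeq2 1.42.0, limma 3.58.1 voom, a replicate block, the 4 compared libraries alone, counts divided by 4 and leaving out each library.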

Additional observations from a re-analysis of the deposited data

How the results depend on the processing

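Scaling, filters, DESeq2, limma voom, the replicate block, the compared libraries alone and counts divided by 4 kept the total of genes called, and of related genes called, within 1.5 times of the main one in each comparison. Related genes called lower at week 2 against week 0 were 8 with DESeq2, against 4. Leaving out 1 library gave 1298 to 1856 genes called at week 7 against week 0 (2123 with all), 1801 to 2752 at week 2 against week 0 (2862) and 1842 to 2961 at week 7 against week 2 (3040); the lowest were without week 7 replicate 1, week 2 replicate 1 and week 2 replicate 1. For the related genes those ranges were 18 to 27 (34), 22 to 39 (37) and 26 to 37 (40). Replicate differences showed no positive correlation between weeks (-0.02 to -0.12 over 9170 genes), which cannot show whether the samples were paired. With a replicate block, 1702, 2436 and 2620 genes were called in the 3 comparisons, and 28, 38 and 37 related genes. With limma voom, 4 of the 10 marker genes were called higher at week 7 against week 0 and 3 at week 2 against week 0. Over all genes, limma voom called 978 and 1380 higher. DESeq2 called 6 and 6 of the 10 higher, and 1480 and 1826 of all genes. With counts divided by 4, Mdk, Bex1 and Igf2bp3 fell below the filter. Of the 7 marker genes then tested, 5 and 4 were called higher, and 1242 and 1640 of all genes. Because the marker genes were chosen on these values, nothing is read from those counts. Leaving out 1 library put the log2 fold change of Bex1 at week 7 against week 2 between -0.86 and 0.49 (-0.34 with all; the sign turned without week 2 replicate 1) and that of Tspan8 at week 2 against week 0 between -0.51 and 2.18 (1.10 with all; the sign turned without week 2 replicate 2). Igf2bp3 at week 2 against week 0 (0.12 with all) turned to -0.87 without week 0 replicate 1 and -5.33 without week 2 replicate 2 (-0.067 with limma voom), and Cd24a at week 7 against week 0 (0.10 with all) to -0.047 without week 7 replicate 2. The cause was not tested. With total counts only, the genes called at week 2 against week 0 were 2007 higher and 913 lower, against 1508 and 1354. Levels under about 0.25 CPM lay at the detection limit.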
